A study of Mus musculus with 10 samples.

Results

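The 37 genes of the mouse mitochondrial genome were examined in RNA-seq libraries from inguinal white adipose tissue (iWAT) of C57BL/6 males. They are all rows that the deposited tables place on chromosome MT, out of 51826 listed genes, and comprise 2 rRNA genes, 22 tRNA genes and 13 protein-coding genes. The offspring generation (F1) was 5 weeks old and consisted of 3 males whose fathers ate a control diet (CD), called control offspring, and 3 whose fathers ate a low-protein diet (LPD), called pLPD offspring, each from a different mother, with all mothers and offspring fed the CD. The parental generation (F0) consisted of 2 males fed the CD and 2 males fed the LPD from weaning, taken at 10 to 12 weeks of age. Each library came from 1 mouse, and generation, age and library set coincide, so that they cannot be told apart. The question behind the comparisons was how a father's diet, or the diet itself, relates to transcript levels in iWAT.

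The mitochondrial genome is a small circle that is transcribed from both strands into long precursor RNAs. In these precursors most rRNA and protein-coding segments are flanked by tRNA segments, and excision of the tRNAs releases the mature rRNAs and mRNAs. All 13 proteins are subunits of the respiratory chain or of ATP synthase, the oxidative machinery that is especially dense in the mitochondria of brown and beige adipocytes. The rRNAs and tRNAs serve the separate translation system that makes these proteins inside the organelle. Since whole tissue was sequenced, fewer cells of a type and less RNA per cell cannot be told apart.

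The libraries held 14192943 to 18620259 reads on genes, so that 3 reads corresponded to 0.161 to 0.211 reads per 1000000 gene reads (RPM), a floor that covers counting error only. Total RNA had been depleted of rRNA with a kit directed at both nuclear and mitochondrial rRNA, and the rRNA reads are those left after this step. The share of gene reads on exons was 49.2% to 51.2% in control offspring, 45.4% in 2 pLPD offspring and 39.3% in pLPD replicate 1, which stood apart from the other libraries. In the same order, introns held 36.0% to 37.5%, 40.7% to 41.8% and 48.4% of the reads of nuclear protein-coding genes. The 8 adipocyte markers examined were detected in all 10 libraries. The summed level of 7 brown or beige fat markers was 580 to 890 RPM in control offspring and 353 to 919 RPM in pLPD offspring. Of the 7, 1 was higher and 2 were lower in every pLPD offspring. In F0 the summed level was 78.3 to 145 RPM in CD-fed and 339 to 387 RPM in LPD-fed males. There 6 of the 7 were higher and 1 was lower in both LPD-fed males. The summed level of 9 skeletal muscle markers was 795 to 1252 RPM in CD-fed and 428 to 569 RPM in LPD-fed F0 males, with 1 marker at 0 in 1 LPD-fed male, and it was 35.4 to 104 RPM in F1. Of the other cell types examined in F1, the summed level of 6 macrophage markers was 453 to 593 RPM in control and 271 to 346 RPM in pLPD offspring, with 6 of 6 markers lower in every pLPD offspring. That of 5 endothelial markers was 276 to 361 against 210 to 242 RPM, with 3 of 5 lower. That of 6 epithelial markers was 5.19 to 7.59 against 0.619 to 2.31 RPM, with 4 of 6 lower and 2 to 4 markers at 0 in each pLPD offspring. The lists for progenitors, B and T cells and red cells overlapped in F1. In F0, the summed B and T cell markers were higher in both LPD-fed males (274 to 298 against 236 to 269 RPM), with 4 of 10 markers higher. The summed macrophage markers were lower (459 to 483 against 507 to 542 RPM), with 3 of 6 lower. The summed progenitor markers were lower (554 to 558 against 727 to 854 RPM), with 4 of 5 lower. The summed endothelial, epithelial and red cell markers overlapped. The part of these markers, of the intron share and of the library that stood apart in the results was not tested.

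Ribosomal RNA accounted for most mitochondrial reads, and its excess over mitochondrial mRNA was larger in pLPD offspring. In control offspring, mitochondrial genes held 13.2%, 12.5% and 11.5% of all gene reads. In pLPD offspring they held 21.0%, 15.8% and 18.1%, so the groups did not overlap. The means were 12.4% ± 0.830 (SD, n = 3) and 18.3% ± 2.58 (SD, n = 3), a 1.48-fold difference. The exact two-sided permutation test gave p = 0.1 at n = 3 against 3, the smallest value this design allows. The difference lay in the rRNAs, at 9.97% ± 0.620 against 15.8% ± 2.36 (SD, n = 3 each), whereas the 13 protein-coding genes together held 2.41% ± 0.222 and 2.56% ± 0.220 (SD, n = 3 each) and overlapped between groups (exact permutation p = 0.5, n = 3 against 3). The ratio of rRNA to protein-coding reads was 3.96, 4.28 and 4.19 in control offspring. It was 6.53, 5.74 and 6.11 in pLPD offspring, 1.48-fold higher on average, with every pLPD offspring above every control mouse (exact permutation p = 0.1, n = 3 against 3).

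In F0 the same ratio was 2.58 and 2.47 in CD-fed males and 2.96 and 2.88 in LPD-fed males, 1.15-fold higher with no overlap. With 2 males against 2, the smallest p of the exact permutation test is 0.333, which was the value obtained. Mitochondrial genes held 13.7% and 13.5% of gene reads in CD-fed males and 16.6% and 14.7% in LPD-fed males. The protein-coding genes held a larger share of reads in F0 than in F1, at 3.85% ± 0.0423 in CD-fed and 3.98% ± 0.283 in LPD-fed males (SD, n = 2 each), and these 2 diets overlapped.

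**Figure D1:**
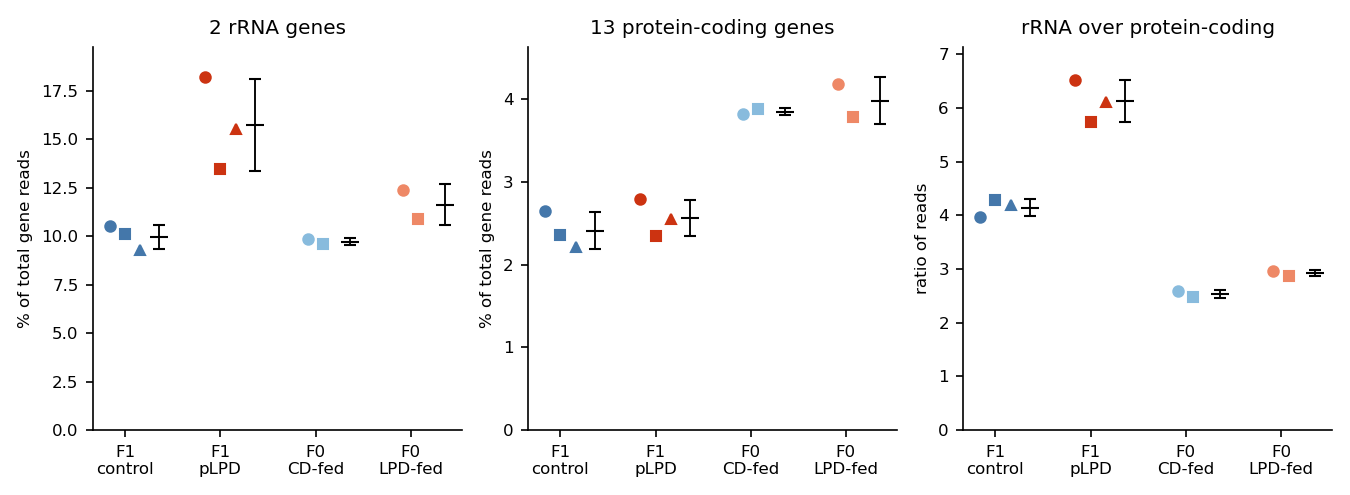
Reads on the 2 mitochondrial rRNA genes and on the 13 mitochondrial protein-coding genes, as percent of total gene reads, and the ratio between them. Symbols are single mice (circle, square and triangle for replicates 1, 2 and 3), bars are the mean and SD. The pLPD offspring sit at ratios of 5.74 to 6.53, above the 3.96 to 4.28 of the control offspring, while the protein-coding shares of the 2 groups overlap.

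The rRNA genes were considered singly. mt-Rnr1 (MT positions 70 to 1024 in mm10), which encodes the rRNA of the small mitochondrial ribosomal subunit, was at 19817, 17616 and 15932 RPM in control offspring and at 41469, 23104 and 29347 RPM in pLPD offspring. mt-Rnr2 (1094 to 2675), which encodes the rRNA of the large subunit, was at 85272, 83360 and 76962 RPM in control offspring and at 140577, 111795 and 126277 RPM in pLPD offspring. Both rRNAs were higher in every pLPD offspring, as were 1.76% of the 14245 genes tested in F1. The edgeR quasi-likelihood test, adjusted over all tested genes, gave a log2 fold change of 0.997 (SE 0.24, adjusted p = 0.0765) for mt-Rnr1 and of 0.79 (SE 0.20, adjusted p = 0.0822) for mt-Rnr2, so neither passed 0.05, whereas DESeq2 called mt-Rnr2 and the likelihood ratio test of edgeR called both. Without pLPD replicate 1 the log2 fold changes were 0.65 and 0.63 in the same test (adjusted p = 0.127 and 0.116). Reads on nuclear rRNA genes, the other target of the depletion, ran in the opposite direction in F1, at 4.06% to 4.71% of gene reads in control offspring and 3.33% to 3.81% in pLPD offspring. In F0 they ran in the same direction as the mitochondrial rRNAs, at 1.77% to 1.86% in CD-fed and 2.37% to 2.45% in LPD-fed males. The part of the depletion step in the rRNA levels was not tested.

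In F0 males, mt-Rnr1 was at 22385 and 19870 RPM on the CD and at 27473 and 22759 RPM on the LPD. mt-Rnr2 was at 76134 and 75993 RPM on the CD and at 96259 and 86021 RPM on the LPD. Both were higher in every LPD-fed male, as were 15.3% of the 14845 genes tested in F0, and in the edgeR test the log2 fold changes were 0.31 (SE 0.25, adjusted p = 0.635) and 0.32 (SE 0.31, adjusted p = 0.711). The 2 rRNAs are cut from the same precursor, and the ratio of mt-Rnr2 to mt-Rnr1 reads overlapped between diets in both generations, at 4.62 ± 0.281 and 4.18 ± 0.733 in F1 (SD, n = 3 each) and at 3.61 ± 0.299 and 3.64 ± 0.195 in F0 (SD, n = 2 each). In the fit of all 10 libraries, the difference between generations in the log2 fold change was 0.69 (SE 0.36, edgeR adjusted p = 0.452) for mt-Rnr1 and 0.48 (SE 0.27, edgeR adjusted p = 0.491) for mt-Rnr2.

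No mitochondrial mRNA passed the edgeR test in F1, where 1.21% of all tested genes did. Of the 13, 2 had an unadjusted p under 0.05, and DESeq2 called 1 of them, mt-Co1, while the likelihood ratio test of edgeR and limma-trend called 0. The log2 fold changes ran from -0.10 to 0.42 with a median of 0.14, against a median of 0.00413 over all tested genes, and 11 were positive and 2 negative. This direction depends on the scale. In RPM, where the rRNA reads are part of the total, the median of all tested genes was -0.15 and the mRNAs had 6 positive and 7 negative log2 ratios with a median of -0.031. On both scales the mRNAs were close to the bulk of nuclear genes. In simulated F1 data, the test recovered 84% of genes changed by 0.75 on the log2 scale and 99% of those changed by 1.5. The changed genes were drawn from well-counted genes. Neither a change of 0.42 or less nor a library that stood apart was simulated, so these rates do not apply to the mRNAs.

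By complex, the complex I subunit mRNAs mt-Nd1 to mt-Nd6 with mt-Nd4l ranged in log2 fold change in F1 from -0.03 for mt-Nd4l (SE 0.19, edgeR adjusted p = 0.958) to 0.40 for mt-Nd5 (SE 0.16, edgeR adjusted p = 0.276). mt-Nd1 was at 0.38, mt-Nd6 at 0.35, mt-Nd2 at 0.11, mt-Nd4 at 0.08 and mt-Nd3 at 0.06. mt-Cytb, the complex III subunit, had the lowest log2 fold change of the 13, at -0.10 (SE 0.15, edgeR adjusted p = 0.819), and mt-Co1, the catalytic core subunit of complex IV, the highest, at 0.42 (SE 0.15, edgeR adjusted p = 0.204). The other complex IV mRNAs mt-Co2 and mt-Co3 were at 0.12 and 0.19, and the ATP synthase mRNAs mt-Atp8 and mt-Atp6 at 0.14 and 0.27. The annotated exons of mt-Atp8 and mt-Atp6, of mt-Nd4l and mt-Nd4, and of mt-Nd5 and mt-Nd6 overlap, and the counting is not stated to use strand, so reads of these pairs, and of a gene and its antisense transcript, cannot be told apart.

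In F0, 23 of the 37 genes passed the filter on low counts and none was called by edgeR, DESeq2 or the likelihood ratio test, with 1 at an unadjusted p under 0.05, whereas 2.50% of all tested genes were called by edgeR. The 13 mRNAs had log2 fold changes from -0.00 for mt-Atp8 to 0.23 for mt-Nd2, with a median of 0.09 against 0.00059 over all tested genes. In the interaction of generation and diet, 0 of the 13 mRNAs were called by edgeR, DESeq2 or the likelihood ratio test, and none had an unadjusted p under 0.05.

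Per length, the order of the mitochondrial transcripts was much the same in all groups. mt-Rnr2 and mt-Rnr1 led, with 51747 ± 2751 and 18626 ± 2040 RPM per kilobase in control offspring (SD, n = 3). Among the mRNAs mt-Co1 was highest and mt-Nd3 lowest in each of the 10 libraries, between 8.68-fold and 14.9-fold apart. mt-Co1 was followed in control offspring by mt-Co2 at 3795 ± 351, mt-Co3 at 3195 ± 61.0 and mt-Atp6 at 3191 ± 262 RPM per kilobase (SD, n = 3), of which the last 2 did not differ beyond their spread. The mRNAs of complex I other than mt-Nd3 lay between 780 ± 135 for mt-Nd4l and 1308 ± 213 for mt-Nd1. These levels use only reads counted on the exon. Across the libraries, 32.4% to 48.7% of the reads of mt-Nd4l and 12.5% to 22.1% of those of mt-Nd6 were not counted there. The places of these 2 genes in the order therefore depend on the counting. mt-Nd6 is the only mRNA gene annotated on the strand opposite to the other 12. It gave 0.0184 ± 0.00240 reads per read on those 12 mRNAs in control offspring and 0.0196 ± 0.00170 in pLPD offspring (SD, n = 3 each). The groups overlapped (exact permutation p = 0.6, n = 3 against 3).

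**Figure D2:**
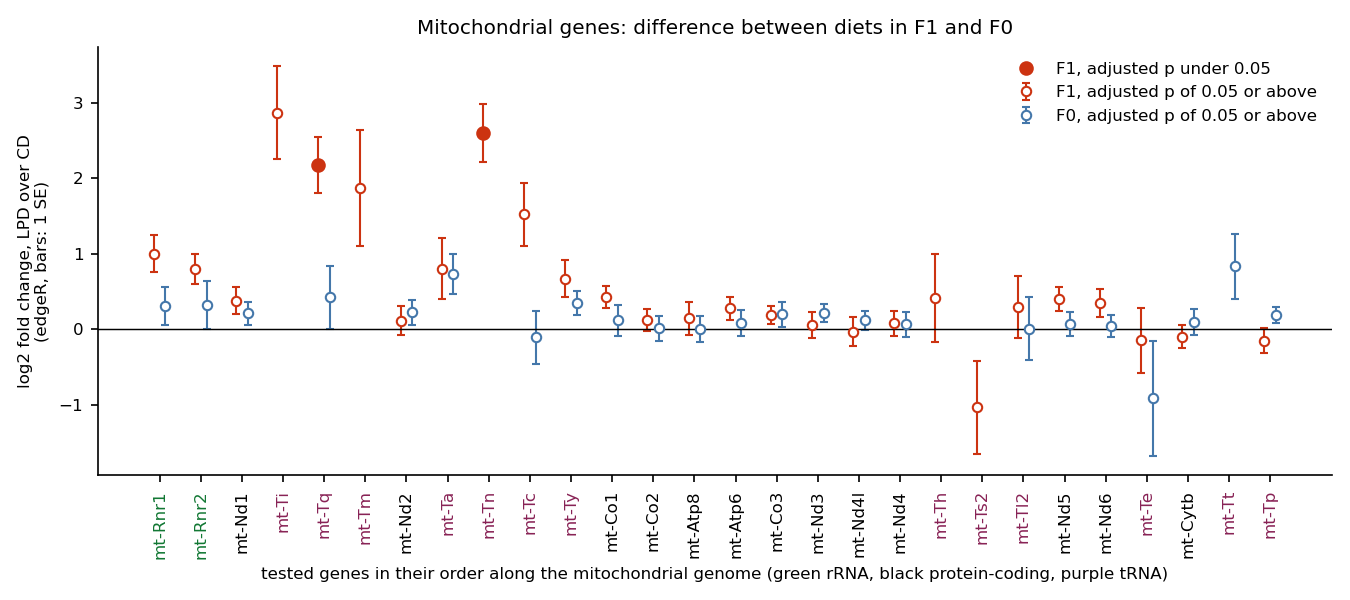
Log2 fold change of LPD over CD for each mitochondrial gene tested, in the order of the genes along the mitochondrial genome, from the edgeR fit of F1 (red) and of F0 (blue), with bars of 1 SE. Filled points passed an adjusted p of 0.05, which in F1 were mt-Tq and mt-Tn. The largest F1 values belong to tRNA genes between mt-Nd1 and mt-Co1, while the mRNAs lie between -0.10 and 0.42.

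The make-up of the mRNA pool differed between the F1 groups, while its size overlapped. These shares of the 13 mRNAs are independent of how the rRNA reads enter the total, and they were examined after the other results were known. mt-Cytb made up 9.96%, 9.76% and 10.0% of the exon reads on the 13 genes in control offspring. In pLPD offspring it made up 7.97%, 7.53% and 7.72%, a mean of 7.74% ± 0.219 against 9.92% ± 0.148 (SD, n = 3 each), with no overlap (exact permutation p = 0.1, n = 3 against 3). In F0 the shares were 11.1% and 10.8% on the CD and 10.9% and 10.7% on the LPD, which overlapped.

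mt-Co1 made up 29.4%, 29.8% and 28.2% of the pool in control offspring and 30.3%, 34.6% and 34.2% in pLPD offspring, also without overlap (exact permutation p = 0.1, n = 3 against 3). Its smallest pLPD value, in the replicate that stood apart, was 0.44 points above the largest value of the other group. With uniquely matching reads alone the mt-Co1 shares overlapped (exact permutation p = 0.2, n = 3 against 3), while those of mt-Cytb did not. mt-Nd5 was the other mRNA whose share was higher in every pLPD offspring, at 9.97% ± 0.606 against 9.11% ± 0.140 (SD, n = 3 each). Lower in every pLPD offspring, beside mt-Cytb, were mt-Co2 at 9.79% ± 0.116 against 10.8% ± 0.0882, mt-Nd4 at 6.44% ± 0.499 against 7.34% ± 0.0694, and mt-Nd4l at 0.779% ± 0.0896 against 0.957% ± 0.0809 (SD, n = 3 each). Shares of a pool are tied to one another, so these 6 genes are not 6 separate observations. For comparison, 22.4% of the 13169 nuclear protein-coding genes tested in F1 had shares of the nuclear protein-coding exon reads that did not overlap between the groups in either direction. In F0, where 47.1% of 13559 such genes did not overlap, 7 of the 13 mitochondrial shares did not, close to this background, with mt-Nd1, mt-Co3 and mt-Nd3 higher and mt-Co2, mt-Atp6, mt-Nd4 and mt-Nd5 lower on the LPD.

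Reads on mt-Nd1 and mt-Nd2 that were not counted on the exon were several times more frequent in pLPD offspring. Each of the 13 genes has a single exon, and the deposited tables give, beside the reads on the exon, the reads on the gene that were not counted on the exon. How the software assigned these reads is not stated, and this measure was also chosen after the other results were known. For mt-Nd2 (positions 3914 to 4951), which adjoins mt-Tm at its start and overlaps mt-Tw at its end, 0.330%, 0.418% and 0.290% of the gene's reads were off the exon in control offspring. The shares were 1.91%, 2.08% and 1.78% in pLPD offspring, which corresponds to 260 to 447 reads against 47 to 82. The mean was 5.56-fold higher, at 1.93% ± 0.149 against 0.346% ± 0.0657 (SD, n = 3 each, exact permutation p = 0.1, n = 3 against 3).

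For mt-Nd1 (positions 2751 to 3707), which adjoins mt-Tl1 at its start and overlaps mt-Ti at its end, the off-exon share was 0.393%, 0.447% and 0.702% in control offspring and 1.77%, 1.57% and 1.42% in pLPD offspring. This was 3.09-fold higher on average without overlap (exact permutation p = 0.1, n = 3 against 3). The 4 F0 libraries were at 0.630% and 0.425% on the CD and 0.385% and 0.582% on the LPD for mt-Nd1, and at 0.371% and 0.329% on the CD and 0.296% and 0.313% on the LPD for mt-Nd2. For mt-Nd1 and mt-Nd2, therefore, all 7 libraries other than those of pLPD offspring lay below 0.703% and 0.419%.

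Of the other mRNAs, mt-Nd3 at 3.06% ± 0.351 against 1.68% ± 0.157 and mt-Cytb at 0.445% ± 0.173 against 0.212% ± 0.0556 (SD, n = 3 each) were also higher in every pLPD offspring. mt-Nd6 was lower in every pLPD offspring, at 12.7% ± 0.186 against 14.6% ± 2.17. The remaining 8 overlapped between the groups, among them mt-Co1 at 1.09% ± 0.0542 against 1.03% ± 0.0412 and mt-Nd4l, which overlaps mt-Nd4 and had 32.4% to 48.7% of its reads off the exon in every library. For comparison, 4.17% of 96 nuclear single-exon protein-coding genes with at least 100 reads in every library had a higher off-exon share in every pLPD offspring than in every control mouse, and 0.00% had a lower one. Introns of nuclear genes also held more reads in pLPD offspring, as given above, and whether the same reads of the mitochondrial genes come from precursor RNA, antisense RNA or DNA was not tested.

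**Figure D3:**
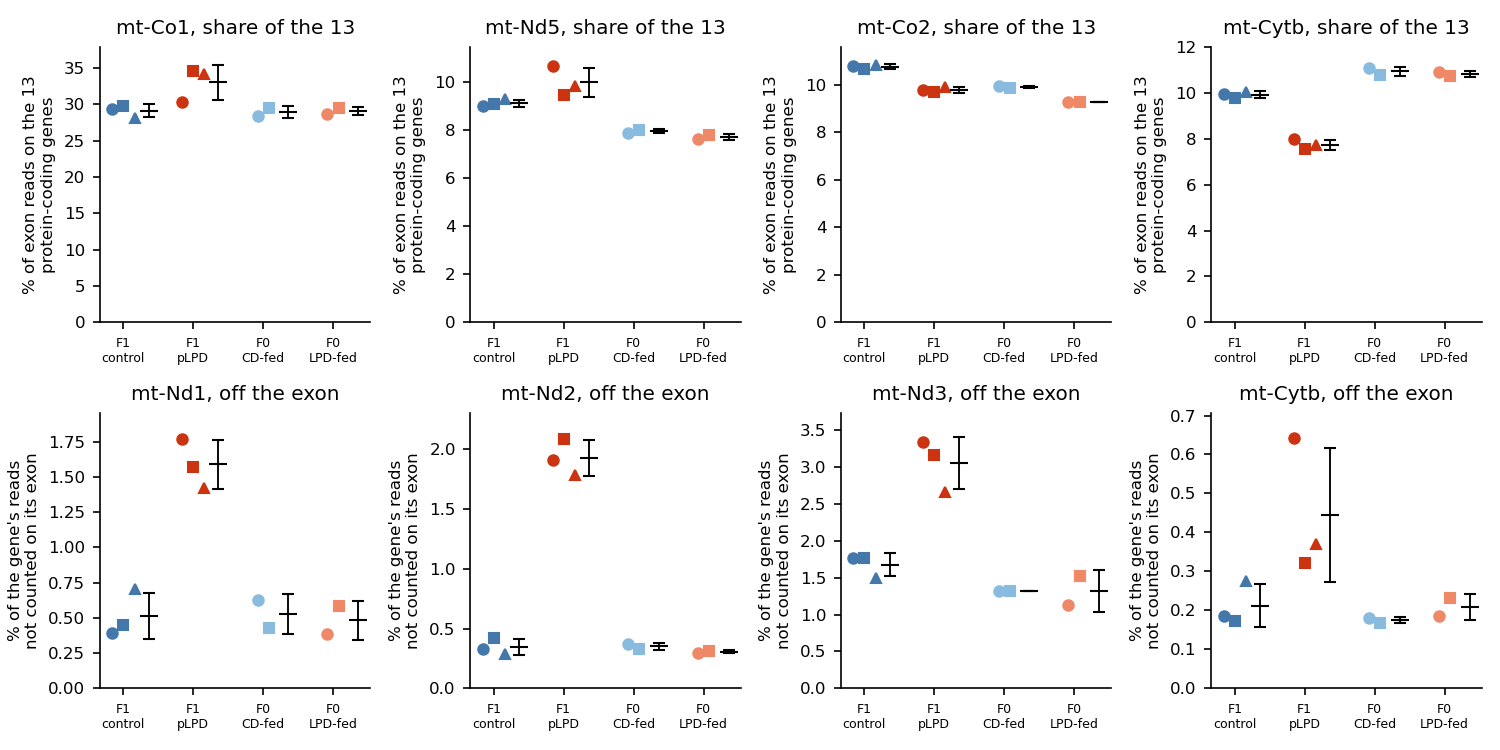
Top, share of 4 mRNAs in the exon reads on the 13 mitochondrial protein-coding genes. Bottom, percent of the reads of 4 genes that were not counted on the exon. Symbols are single mice (circle, square and triangle for replicates 1, 2 and 3), bars are the mean and SD. In pLPD offspring mt-Cytb holds 7.53% to 7.97% of the pool against 9.76% to 10.0%, and 1.78% to 2.08% of mt-Nd2 reads lie off the exon against 0.290% to 0.418%.

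Of the tRNA genes, edgeR called mt-Tq and mt-Tn higher in pLPD offspring. Whether reads on the tRNA genes come from tRNA, precursor RNA or antisense RNA was not tested. Mature tRNAs are short and heavily modified and are captured poorly by such libraries, and all tRNA genes together held 0.00240% ± 0.000457 of gene reads in control offspring and 0.00354% ± 0.000746 in pLPD offspring (SD, n = 3 each). mt-Td, mt-Tk and mt-Tg had 0 listed reads over the 10 libraries. All reads listed on the other tRNA genes matched uniquely. Whether reads that also match elsewhere were listed on tRNA genes is not given. The counts of 0 therefore set no upper limit on the level of these 3 genes. Of the 12 tRNA genes tested in F1, 4 were higher in every pLPD offspring, where 1.76% of all tested genes were. Of these 4, mt-Ti, mt-Tn and mt-Tc had too few reads in control offspring alone to pass the filter on low counts. They were tested because of their pLPD reads, so 4 of 12 cannot be read against that share. The 4 tRNA genes are shown with the anticodon in capitals, as read from the mm10 transcripts of GENCODE vM21. They carry isoleucine, glutamine, asparagine and cysteine in this order.
mt-Ti: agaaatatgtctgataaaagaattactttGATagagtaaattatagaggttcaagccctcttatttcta
mt-Tq: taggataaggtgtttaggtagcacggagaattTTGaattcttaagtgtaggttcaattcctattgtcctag
mt-Tn: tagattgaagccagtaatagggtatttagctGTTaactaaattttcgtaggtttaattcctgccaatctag
mt-Tc: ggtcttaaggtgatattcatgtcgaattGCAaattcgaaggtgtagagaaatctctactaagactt

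All 4 lie between mt-Nd1 and mt-Co1, at MT positions 3706 to 3774 for mt-Ti, 3772 to 3842 for mt-Tq, 5089 to 5159 for mt-Tn and 5192 to 5257 for mt-Tc. mt-Ti is encoded on the same strand as the neighbouring mRNAs and overlaps the end of mt-Nd1, whereas the others are encoded on the opposite strand. mt-Tq, the glutamine tRNA, had 19, 16 and 27 reads in control offspring and 123, 62 and 57 in pLPD offspring. Its level was 1.33 ± 0.476 and 5.20 ± 2.09 RPM (SD, n = 3 each), a log2 fold change of 2.17 (SE 0.37, edgeR adjusted p = 0.0232). mt-Tn, the asparagine tRNA, had 9, 6 and 10 reads in control offspring and 58, 43 and 32 in pLPD offspring. Its level was 0.534 ± 0.175 and 2.87 ± 0.676 RPM (SD, n = 3 each), a log2 fold change of 2.60 (SE 0.38, edgeR adjusted p = 0.0116). These were the 2 mitochondrial genes called among the 27 tested in F1, and both were higher, as were 0.161% of all tested genes. Because mt-Tn was tested only through its pLPD reads, 2 of 27 cannot be read against that share.

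Both calls rest on few reads, and mt-Tn passed the filter of the F1 fit only through its pLPD reads. With at least 10 counts required in every sample, mt-Tn was not tested and mt-Tq was still called. The 2 tRNAs were called again when control offspring replicate 3 or pLPD replicate 3 was left out, and neither was called without control offspring replicate 1 or 2 or pLPD replicate 1 or 2, with edgeR adjusted p of 0.0522 to 0.117. Without pLPD replicate 1 the log2 fold changes were 1.69 for mt-Tq (edgeR adjusted p = 0.0655) and 2.32 for mt-Tn (edgeR adjusted p = 0.0541). mt-Ti, which was added to the genes named because of its value, had 2, 2 and 6 reads in control offspring and 36, 15 and 14 in pLPD offspring, and its log2 fold change was 2.87 (SE 0.61, edgeR adjusted p = 0.0510). mt-Tc had 24, 8 and 24 reads against 62, 43 and 36, with a log2 fold change of 1.52 (SE 0.42, edgeR adjusted p = 0.108). mt-Tm, the tRNA gene that adjoins mt-Nd2, had 0, 13 and 2 reads against 24, 15 and 8, which overlapped.

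The most abundant tRNA genes did not follow the same pattern. mt-Tp, the proline tRNA and the one with most reads, was at 11.2, 7.59 and 10.3 RPM in control offspring and at 6.87, 7.88 and 8.74 RPM in pLPD offspring (log2 fold change -0.15, SE 0.17, edgeR adjusted p = 0.719). mt-Ty, the tyrosine tRNA gene next to mt-Tc, was at 3.98, 4.05 and 5.67 RPM and at 7.31, 4.36 and 7.61 RPM (log2 fold change 0.67, SE 0.25, edgeR adjusted p = 0.229). mt-Ta, the alanine tRNA, was at 1.99, 0.913 and 2.12 RPM and at 3.65, 1.79 and 2.18 RPM (log2 fold change 0.80, SE 0.40, edgeR adjusted p = 0.382). All 3 overlapped between the groups. The 8 tRNA genes on the strand opposite to most genes held 86.1% of all listed tRNA reads, the 14 on the other strand 13.9%. Among the 14 are the 3 genes with 0 listed reads. These shares cover uniquely matching reads only, because no others were listed on tRNA genes.

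In F0, none of the 8 tRNA genes tested was called, and mt-Tq was at 0.955 and 0.816 RPM on the CD and 1.45 and 0.798 RPM on the LPD. mt-Tn had 11 and 6 reads on the CD and 4 and 3 on the LPD, too few for the filter of the F0 fit. In the fit of all 10 libraries the diet difference of mt-Tn differed between generations by 3.80 on the log2 scale (SE 0.77, edgeR adjusted p = 0.0339). It was the only one of the 28 mitochondrial genes tested to be called there, where 1.25% of all tested genes were. It was called in 3 of the 10 fits that left out 1 library, and leaving out any F0 library, control offspring replicate 1 or 2 or pLPD replicate 2 ended the call.

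**Figure D4:**
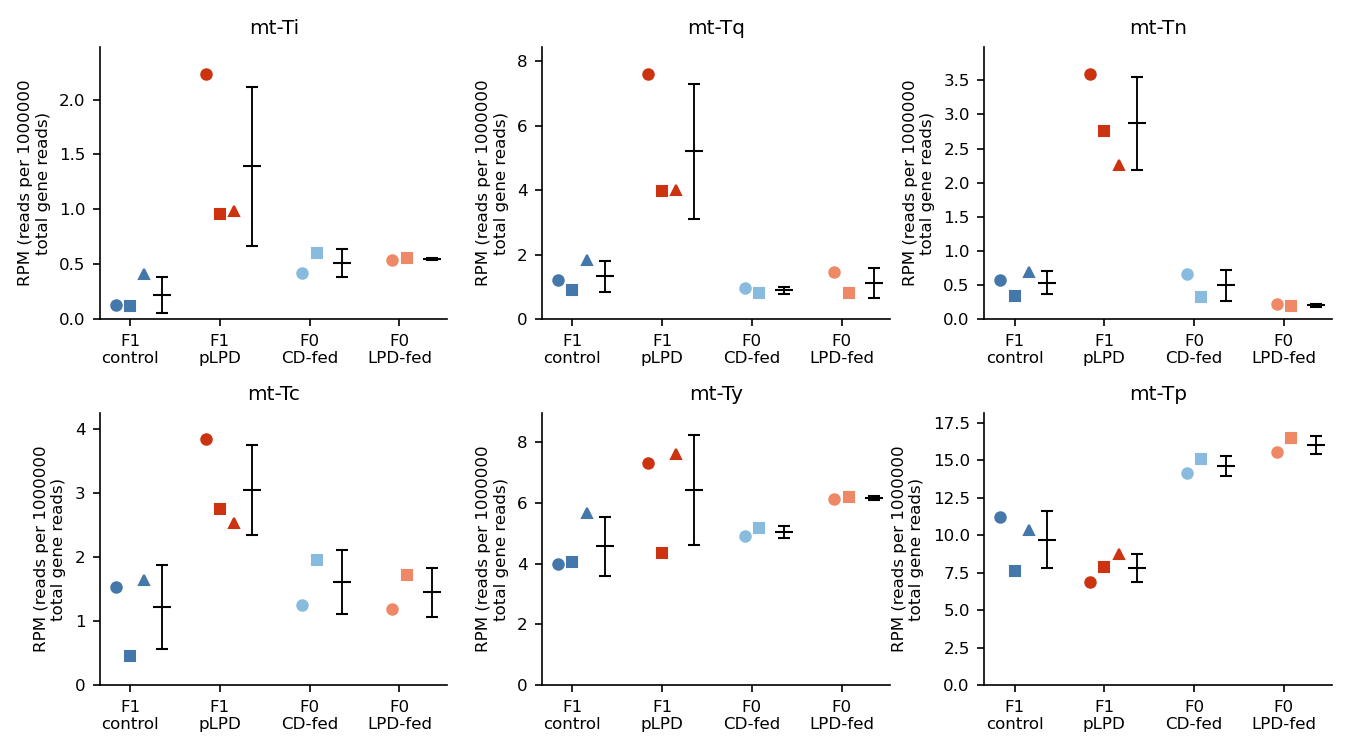
Level of 6 mitochondrial tRNA genes in RPM. Symbols are single mice (circle, square and triangle for replicates 1, 2 and 3), bars are the mean and SD. mt-Ti, mt-Tq, mt-Tn and mt-Tc were higher in each pLPD offspring than in each control mouse, whereas mt-Ty and mt-Tp overlapped.

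Of 58 nuclear genes for mitochondrial transcription and RNA processing, 57 were found in the files and tested, and 1, Ppargc1a, was called in F1. With 1.21% of all tested genes called, a count of 1 in 57 is near the background. Ppargc1a, which encodes the coactivator PGC-1alpha and drives genes of mitochondrial biogenesis, was at 8.98, 7.99 and 8.41 RPM in control offspring and at 18.9, 12.8 and 14.9 RPM in pLPD offspring. The levels did not overlap, and the log2 fold change was 1.05 (SE 0.18, edgeR adjusted p = 0.0274). Without pLPD replicate 1 it was 0.80 (edgeR adjusted p = 0.0593), and it was also not called without control offspring replicate 1 or 2, nor with the exon share as a covariate (0.29, edgeR adjusted p = 0.784) or by limma-trend (0.81, adjusted p = 0.0617). In F0 its level was 10.5 and 12.6 RPM on the CD and 6.82 and 10.1 RPM on the LPD (log2 fold change -0.40, SE 0.18, edgeR adjusted p = 0.345). The diet difference of Ppargc1a differed between generations by 1.45 on the log2 scale (SE 0.30, edgeR adjusted p = 0.0402), but this rests on the reads counted. With all reads on the gene, introns included, the F0 log2 fold change turned to 0.42 and the difference between generations fell to 0.30 (edgeR adjusted p = 0.553). It was also not called with the exon share as a covariate (1.01, edgeR adjusted p = 0.203), and it was called in 3 of the 10 fits that left out 1 library, those without control offspring replicate 3 or pLPD replicate 1 or 2.

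None of the genes of the basal transcription apparatus passed the edgeR test. In F1 the log2 fold changes were 0.11 for Polrmt, the mitochondrial RNA polymerase, -0.11 for Tfam, which packages and activates the mitochondrial genome, and 0.05 for Tfb2m, the initiation factor. Lrpprc and Slirp, which together stabilise mitochondrial mRNAs, were at -0.00 and -0.04. In F0 the 5 genes lay between 0.01 for Slirp and 0.35 for Tfb2m, and none of the 5 was called by edgeR without the replicate block in either generation. The median over the list was 0.06 in F1 and 0.05 in F0. Of 79 nuclear genes for proteins of the mitochondrial ribosome, the protein partners of mt-Rnr1 and mt-Rnr2, 0 were called by edgeR, DESeq2 or the likelihood ratio test in either generation. In F1, 2 of them were higher and 3 lower at an unadjusted p under 0.05, as in F0, and the medians were -0.06 and -0.01.

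Most reads of 5 mRNAs could not be placed on the mitochondrial genome by sequence alone. The nuclear genome carries inserted copies of mitochondrial DNA, and a read that matches both is not unique. Of the exon reads, 0.132% to 0.357% matched uniquely for mt-Co2 across the 10 libraries, 0.187% to 0.350% for mt-Co3, 0.228% to 0.479% for mt-Atp6, 0.687% to 1.83% for mt-Nd3 and 0.962% to 1.55% for mt-Nd4l. The shares were 42.1% to 53.2% for mt-Nd4, 62.3% to 65.3% for mt-Co1 and 97.5% to 98.5% for mt-Nd5. The other 5 mRNAs were at or above 99.6%. Both rRNAs, and every tRNA gene with reads, were at 100%. Whether reads that also match elsewhere were listed on the rRNA and tRNA genes is not given. Their 100% therefore does not show that their sequence is unique.

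For the mRNAs, the annotated nuclear copies follow much the same division. Of all stretches of 36 bases, the read length, in the transcript of mt-Co2, 649 of 649 also occurred in an annotated nuclear transcript, as did 748 of 749 for mt-Co3, 643 of 646 for mt-Atp6, 902 of 1510 for mt-Co1 34 of 1109 for mt-Cytb and 32 of 1547 for mt-Rnr2, but 0 of those of mt-Nd1 and mt-Rnr1. Gm28661 on chromosome 1 (24614885 to 24615565 in mm10) was identical to mt-Co2 over 681 of 681 aligned bases, and the neighbouring Gm10925 and Gm28437 to mt-Atp6 over 678 bases and to mt-Co3 over 783 bases. Gm29216 on the same chromosome (24615706 to 24616197) ran alongside mt-Co1 with 6 mismatches in 492 bases. The start of this alignment, from base 1054 of mt-Co1, is shown because it marks where a copy can be told from the mitochondrial gene, with the differing bases in capitals.
mt-Co1: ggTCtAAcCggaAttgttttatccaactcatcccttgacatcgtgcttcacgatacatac
Gm29216: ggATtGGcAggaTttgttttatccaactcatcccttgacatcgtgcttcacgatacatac

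Per library, 0 or 1 reads were listed on Gm28437 and Gm28439, 0 on Gm28661 and Gm10925 and 1 to 18 on Gm29216. All reads listed on Gm28437, Gm28439 and Gm29216 matched uniquely. Reads that match a copy and its mitochondrial gene alike were thus not listed on these copies. The low counts therefore do not show how many reads came from the copies. In contrast, Gm20594 on chromosome 6 (79817916 to 79818364), which holds the 32 shared stretches of mt-Rnr2, was listed with 2143 reads over the 10 libraries, of which 60 matched uniquely. It had 170 to 206 reads in control and 304 to 582 in pLPD offspring. The part of the nuclear copies in the reads of mt-Co1, mt-Co2, mt-Co3, mt-Atp6, mt-Nd3, mt-Nd4 and mt-Nd4l was not tested. With uniquely matching reads alone, the rRNA to protein-coding ratio again did not overlap between the F1 groups (exact permutation p = 0.1, n = 3 against 3). All listed rRNA reads count as unique, so this setting changed only the protein-coding reads and does not check the rRNA reads.

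**Figure D5:**
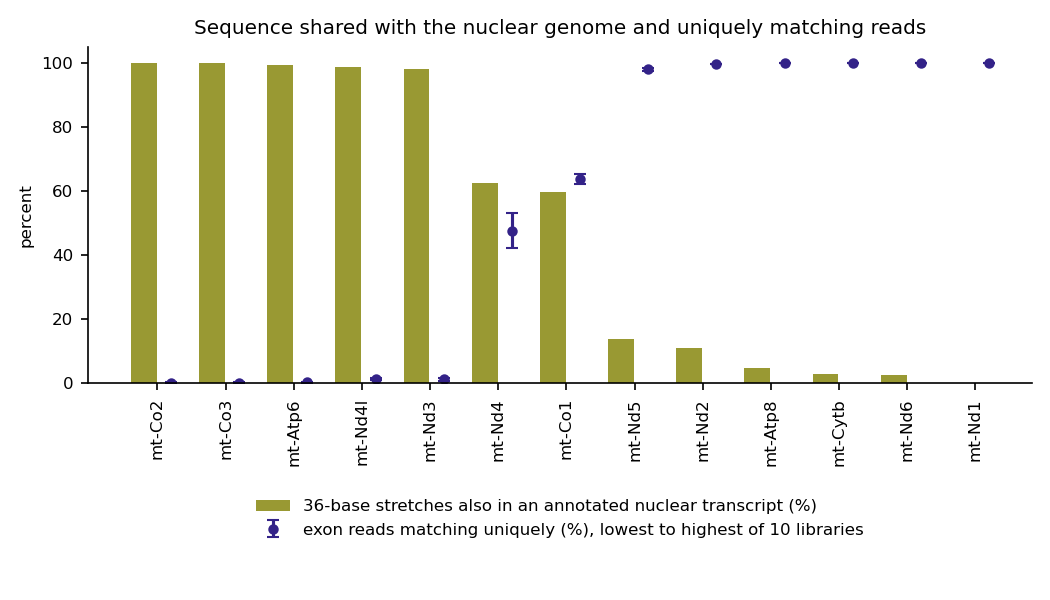
For each mitochondrial protein-coding gene, the percent of its 36-base stretches that also occur in an annotated nuclear transcript (bars) and the percent of its exon reads that matched uniquely (points at the middle of the range, with lines from the lowest to the highest of 10 libraries). The 5 genes with almost every stretch shared have at most 1.83% unique reads.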

How the data were processed

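RNA-seq libraries (rRNA-depleted total RNA, directional kit, paired reads of 36 bases) of 10 iWAT samples were mapped by the authors to mm10 in CLC Genomics Workbench 9.5.1. The deposited count columns give the authors' unnormalised reads per gene, on exons and off exons, in total and uniquely matching, and the deposited RPKM values are the authors' exon reads scaled to exon length and library total. How ambiguous reads were assigned and whether strand was used are not given in the sources used here. Total exon reads were used for the 33120 genes with an exon length and total gene reads for the 18706 without one, among them the mitochondrial rRNA and tRNA genes. RPM are these reads per 1000000 total gene reads.

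Diets were compared within each generation in R 4.3.3 with edgeR 4.0.16 (filterByExpr, TMM, quasi-likelihood F test, two-sided, Benjamini-Hochberg adjustment over all tested genes, threshold 0.05), and generations by the interaction in a fit of 10 libraries. SE is the log2 fold change divided by the square root of F. Shares and ratios were compared by an exact two-sided permutation test. The labels number mice within groups, and no source says what the numbers share. The test was checked on simulated data, with 10 false calls in F1 and 6 in F0. Alternatives used DESeq2 1.42.0, limma 3.58.1 and the settings named in the closing section. All rRNA and protein-coding genes were named, with the 5 tRNA genes of highest mean level, each tRNA gene called, each called gene of the 2 nuclear lists, and Polrmt, Tfam, Tfb2m, Lrpprc and Slirp. The members and lists were chosen with earlier results of these data known. The positions of all 37 genes matched GENCODE vM21, from which sequences were taken.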

Additional observations from a re-analysis of the deposited data

Results flagged for a closer look

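The difference between diets differed between generations for mt-Tn, by 3.80 on the log2 scale in the edgeR interaction test (SE 0.77, adjusted p = 0.0339), with every pLPD offspring above every control mouse and both LPD-fed F0 males below both CD-fed males, on 3 to 11 reads per F0 library. With the exon share as a covariate it was 3.04 (edgeR adjusted p = 0.0927), and 3 of the 10 fits that left out 1 library called it.

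The same test gave a difference of 1.45 on the log2 scale for Ppargc1a (SE 0.30, edgeR adjusted p = 0.0402), with higher levels in 3 of 3 pLPD offspring than in any control mouse and lower levels in 2 of 2 LPD-fed F0 males than in either CD-fed male. With total gene reads for every gene the F0 log2 fold change had the opposite sign (0.42) and the difference was 0.30 (edgeR adjusted p = 0.553), with the exon share as a covariate it was 1.01 (edgeR adjusted p = 0.203), and 3 of the 10 fits that left out 1 library called it.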

How the results depend on the processing

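The number of mitochondrial genes called in F1, 2 in the main analysis, was 6 with DESeq2, 6 with the likelihood ratio test of edgeR, 5 with all 4 groups in one fit, 12 with no filter on low counts and 1 with at least 10 counts in every sample. It was 0 with each library's exon share as a covariate, 0 with total exon reads only and 0 with limma-trend on log2 RPKM (0.1 added), where by construction only the 13 protein-coding genes have values. All calls in F1 were of genes higher in pLPD offspring, and none was made in F0 under any of these settings. Leaving out 1 mouse gave 0 to 4 calls. The exon share was lower in each pLPD offspring than in each control mouse and counts the rRNA reads in its total, so in F1 it cannot be told apart from the father's diet or from the rRNA level itself. mt-Rnr1 was called in 4 of 11 alternatives, mt-Rnr2 in 4 of 11, mt-Ti in 5 of 10, mt-Tq in 10 of 11 and mt-Tn in 9 of 10, each leaving out no mouse. The interaction called 0 mitochondrial genes with at least 10 counts in every sample, 0 with total exon reads only, 4 with no filter and 0 to 1 with 1 mouse left out. With the exon share it called 1, mt-Nd3 (-0.81 on the log2 scale) and not mt-Tn. The transcription list had 0 calls in F1 with the exon share, 0 with limma-trend and 0 to 1 with 1 mouse left out. In F0 it had 1 with no filter and 0 to 1 with 1 mouse left out, and the mitochondrial ribosomal protein list had 1 in F0 with total gene reads for every gene. Causes other than those stated were not tested. The depth limits the tRNA genes, of which 10 had too few listed reads to be tested in F1.

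Mice of the 2 diets share replicate numbers, but no source ties them, and their deviations from the group means correlated by no more than 0.0376 for equal numbers in F1 and 0.0660 in F0, so the numbers were not taken as pairs. In F1 not every mouse correlated best with its own number. With the replicate number as a block, 3 mitochondrial genes were called in F1 (mt-Rnr1 beside mt-Tq and mt-Tn), 0 in F0 and 1 in the interaction, and the transcription list had 2 calls in F0 (Tfb2m higher, Hsd17b10 lower).

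No value that changed sign had itself been called in the main edgeR fit of its comparison, though mt-Tq and Ppargc1a were called in F1 and changed sign in F0. In F1, mt-Rnr1 changed sign in 1 alternative and was called in 4 of 11. Likewise mt-Nd1, mt-Nd5 and mt-Nd6 each changed sign in 1 alternative and were called in 1 of 13. With the exon share as a covariate, the log2 fold changes in F1 were -0.0015 for mt-Rnr1, -0.27 for mt-Nd1, -0.78 for mt-Nd2, -0.34 for mt-Co2, -0.73 for mt-Atp8, -0.27 for mt-Atp6, -0.094 for mt-Co3, -0.79 for mt-Nd3, -0.59 for mt-Nd4, -0.22 for mt-Nd5, -0.29 for mt-Nd6 and -0.62 for mt-Ta. In F0 they were -0.089 for mt-Co2, -0.012 for mt-Atp6, -0.069 for mt-Nd4l, -0.076 for mt-Nd4, -0.0085 for mt-Nd5, -0.24 for mt-Nd6, -0.037 for mt-Cytb, -0.20 for mt-Tq and 0.44 for mt-Tc. With limma-trend they were -0.088 for mt-Nd2, -0.047 for mt-Co2, -0.048 for mt-Atp8, -0.14 for mt-Nd3 and -0.10 for mt-Nd4 in F1 and -0.046 for mt-Co2 and -0.026 for mt-Nd6 in F0. With uniquely matching reads mt-Nd3 was at -0.22 in F1 and -0.38 in F0, and mt-Atp8 in F0 was at 0.00053 with no filter and 0.0094 with total gene reads.

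For the nuclear genes, whose alternatives were chosen after seeing the data, Ppargc1a in F0 was at 0.42 with total gene reads, which took its difference between generations to 0.30 and ended that call, as did the exon share (1.01). Polrmt in F1 was at -0.080 with the exon share and -0.051 with limma-trend, Tfb2m in F1 at -0.107 with limma-trend and -0.098 with uniquely matching reads, and Lrpprc in F1 at 0.000836 with total exon reads only and 0.097 with total gene reads. Tfam and Slirp in F0 were at -0.123 and -0.0584 with the exon share, and Slirp at -0.053 with limma-trend. With 1 mouse left out, Tfb2m ran from -0.025 to 0.121, Lrpprc from -0.0746 to 0.068 and Slirp from -0.131 to 0.042 in F1, and Tfam from -0.0679 to 0.232 and Slirp from -0.109 to 0.114 in F0. Leaving out 1 mouse took the difference between generations from 1.20 to 1.73 for Ppargc1a and from 3.22 to 4.23 for mt-Tn, each called in 3 of 10.

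With 1 mouse left out, the ranges that crossed 0 for the mitochondrial genes in F1 were -0.19 to 0.27 for mt-Nd2, -0.024 to 0.22 for mt-Co2, -0.13 to 0.37 for mt-Atp8, -0.22 to 0.19 for mt-Nd3, -0.29 to 0.15 for mt-Nd4l, -0.14 to 0.20 for mt-Nd4 and -0.27 to 0.019 for mt-Cytb. In F0 they were -0.080 to 0.10 for mt-Co2, -0.33 to 0.26 for mt-Atp8, -0.023 to 0.18 for mt-Atp6, -0.033 to 0.25 for mt-Nd4l, -0.050 to 0.17 for mt-Nd4, -0.012 to 0.14 for mt-Nd5, -0.14 to 0.20 for mt-Nd6, -0.015 to 0.20 for mt-Cytb, -0.11 to 0.79 for mt-Tq and -0.37 to 0.24 for mt-Tc. The difference in the protein-coding share in F0 ran from -0.066 to 0.335 percentage points, the log2 ratio of the mt-Rnr2 to mt-Rnr1 quotient in F0 from -0.0717 to 0.098, and that of the mt-Nd6 quotient from -0.018 to 0.16 in F1 and from -0.19 to 0.036 in F0. The share of mt-Co1 in the mRNA pool in F0 ran from -0.41 to 0.759 points and was -0.046 with uniquely matching reads, that of mt-Cytb in F0 ran from -0.272 to 0.019, and the off-exon share of mt-Nd1 in F0 from -0.147 to 0.058. The settings for the pool shares and off-exon shares were chosen after seeing the data. In F1, the differences in rRNA share, in the rRNA to protein-coding ratio, in the pool shares of mt-Co1 and mt-Cytb and in the off-exon shares of mt-Nd1 and mt-Nd2 kept their direction under every setting tried. Because the groups did not overlap in these quantities, leaving out 1 mouse could not have turned the direction. The exon share was not used as a covariate for them.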
